A study of Homo sapiens with 3 samples.

Results

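SOX2, its overlapping transcript gene SOX2-OT and 7 other SOX genes were followed in TE5 cells in which KLF5 was knocked down. The 9 genes were SOX2, SOX2-OT, SOX4, SOX7, SOX9, SOX12, SOX13, SOX15 and SOX21, taken by name out of 52992 annotated genes, with the values of their transcripts summed per gene. All 9 passed the filter on low counts, which left 20629 genes for testing. TE5 is an established human cell line of esophageal squamous cell carcinoma. The scramble group was TE5 transfected with a scrambled control (1 library) and the shKLF5 group was TE5 transfected with a short hairpin RNA against KLF5 (2 libraries, numbered 1 and 2), all harvested after 48 h. All were grown with fetal bovine serum, penicillin and streptomycin. The labels do not say whether the 2 numbers stand for separate hairpins or separate cultures. Every p-value rests on the spread of this pair over all genes, possibly a technical one, towards which the fits draw the spread of each gene. The lone scramble library is taken to vary as the pair does. Where 3 values follow each other below, they stand for scramble, shKLF5 library 1 and shKLF5 library 2, in that order.

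SOX proteins are transcription factors that bind the minor groove of DNA through a high mobility group box and bend it. SOX2, of the SOXB group, keeps progenitors of the foregut and the basal layer of the esophagus undifferentiated, and its locus on the long arm of chromosome 3 is often amplified in squamous carcinomas. SOX21, also of the SOXB group, is known mainly as a repressor that opposes SOXB activators, while SOX4 and SOX12 belong to SOXC, SOX13 to SOXD, SOX9 to SOXE, SOX7 to SOXF and SOX15 to SOXG. The design text names SOX2 with TP63 and KLF5 as factors of one regulatory circuit, and the comparison asks what became of SOX2 and its relatives when KLF5 was low.

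The stretches before the starts of 5 of these genes are given here because their values summed per gene took different courses in the libraries. SOX2 and SOX21 went together, SOX2-OT apart from them, SOX12 low and SOX13 not. Each is the 250 bases before a RefSeq start on GRCh38.p14, printed 5′ to 3′ in the direction of the gene. SOX2 is chr3:181711675-181711924 on the plus strand, SOX2-OT is chr3:181610084-181610333 on the plus strand, SOX21 is chr13:94712546-94712795 on the minus strand, SOX12 is chr20:325302-325551 on the plus strand and SOX13 is chr1:204072865-204073114 on the plus strand. Capitals mark matches on either strand to GGGCGG (the GC box), CACCC (the CACCC box, which KLF factors can bind), CCAAT (the CCAAT box), TATAAA (the TATA box) and ACAANG (a core bound by SOX factors), where neighbouring matches may touch.
SOX2: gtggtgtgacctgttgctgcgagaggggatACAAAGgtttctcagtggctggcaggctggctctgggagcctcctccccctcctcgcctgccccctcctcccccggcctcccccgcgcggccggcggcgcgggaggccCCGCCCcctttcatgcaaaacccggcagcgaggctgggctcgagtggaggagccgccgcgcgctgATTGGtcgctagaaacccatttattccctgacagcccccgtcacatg
SOX2-OT: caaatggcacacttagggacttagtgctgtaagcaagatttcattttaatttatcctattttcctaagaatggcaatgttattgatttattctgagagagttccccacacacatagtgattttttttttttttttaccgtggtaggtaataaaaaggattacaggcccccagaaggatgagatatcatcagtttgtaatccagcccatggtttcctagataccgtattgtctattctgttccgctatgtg
SOX21: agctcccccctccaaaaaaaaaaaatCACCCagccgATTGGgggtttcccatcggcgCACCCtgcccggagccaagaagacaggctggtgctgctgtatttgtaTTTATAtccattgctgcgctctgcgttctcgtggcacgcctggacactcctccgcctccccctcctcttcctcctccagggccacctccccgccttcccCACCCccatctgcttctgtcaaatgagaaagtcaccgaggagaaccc
SOX12: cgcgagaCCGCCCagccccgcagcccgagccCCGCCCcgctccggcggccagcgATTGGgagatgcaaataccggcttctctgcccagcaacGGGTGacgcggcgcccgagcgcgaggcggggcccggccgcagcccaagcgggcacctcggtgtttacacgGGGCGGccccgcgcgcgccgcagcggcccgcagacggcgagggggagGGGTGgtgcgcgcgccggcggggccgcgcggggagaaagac
SOX13: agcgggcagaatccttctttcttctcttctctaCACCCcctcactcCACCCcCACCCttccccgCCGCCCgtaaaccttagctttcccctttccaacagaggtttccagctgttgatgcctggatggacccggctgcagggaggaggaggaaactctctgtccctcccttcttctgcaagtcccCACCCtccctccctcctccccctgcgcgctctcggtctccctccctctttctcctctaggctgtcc

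The SOX2 stretch was 68.8% G and C and held 1 GC box, 1 CCAAT box and 1 SOX core, the last of them 220 bases before the start. The SOX2-OT stretch, which lies before 1 of 3 RefSeq starts of that gene, was 36.8% G and C and held none of the 5 motifs in these letters. It is shown because SOX2-OT-213, a main transcript of the gene in TE5, begins beside it. That transcript had 72, 82 and 42 counts, lowest in library 2, unlike the gene sum of 257, 381 and 301. Of the windows at the other RefSeq starts of SOX2-OT, 1 held a CCAAT box and a TATA box and 1 held 2 SOX cores. SOX21 had 3 CACCC boxes, 1 CCAAT box and 1 TATA box, and its RefSeq start lay 171 bases from that of the divergent noncoding gene SOX21-AS1. SOX12 had 3 GC boxes, 2 CACCC boxes and 1 CCAAT box, and SOX13 had 4 CACCC boxes and 1 GC box. Among 35116 windows of the same length in the RefSeq table, 42.6% held a GC box, 54.7% a CACCC box, 32.0% a CCAAT box, 10.7% a TATA box and 30.9% a SOX core. These matches are descriptions of the letters only. Windows were found for 6 of the 9 genes.

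The libraries held 33448976, 33544752 and 32720563 estimated counts. KLF5, the target, had 8402, 1333 and 1531 counts, below scramble in both shKLF5 libraries as their labels say. Its log2 fold change was -2.96 (SE 0.34), with an adjusted p of 0.182 by edgeR's quasi-likelihood test, 0.0149 by edgeR's legacy fit and 1.47e-06 by DESeq2. Markers of squamous epithelium were present, with 9 of 9 at 10 or more counts in every library and a summed level of 4055 TPM (a level scaled by transcript length) in scramble, 1240 in library 1 and 669 in library 2. Of 7 glandular markers 1 reached 10 counts in every library, MUC2 and TFF1 were at 0 throughout, and their summed level ran from 0.616 to 1.02 TPM. Neural markers ran from 5.73 to 9.58 TPM with 3 of 7 at 10 counts in every library, and fibroblast markers from 13.5 to 23.0 TPM with 1 of 4. Leukocyte markers stood at 0.414, 2.02 and 2.52 TPM with 0 of 4, and endothelial markers at 0.324, 1.05 and 1.35 TPM with 1 of 3, both lowest in scramble. Their part in the SOX values was not tested. In bulk RNA, fewer cells that express a gene and less RNA per cell cannot be told apart.

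SOX2 was the most abundant SOX gene of TE5 in all 3 libraries. Its level was 81.5 TPM in scramble, 113 in shKLF5 library 1 and 30.0 in library 2. It took 67.0% of the summed TPM of 19 SOX coding genes in scramble and 67.4% in library 1, but 43.8% in library 2. By counts that share was 63.8% (95% Wilson interval 62.8 to 64.7), 64.8% (64.0 to 65.7) and 43.0% (41.7 to 44.4), intervals that cover counting error of reads only. The other SOX genes together stayed within a narrower range, with 40.2, 54.7 and 38.5 TPM. SOX2 therefore carried most of the SOX mRNA of the line in scramble and library 1 and less of it in library 2.

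**Figure D1:**
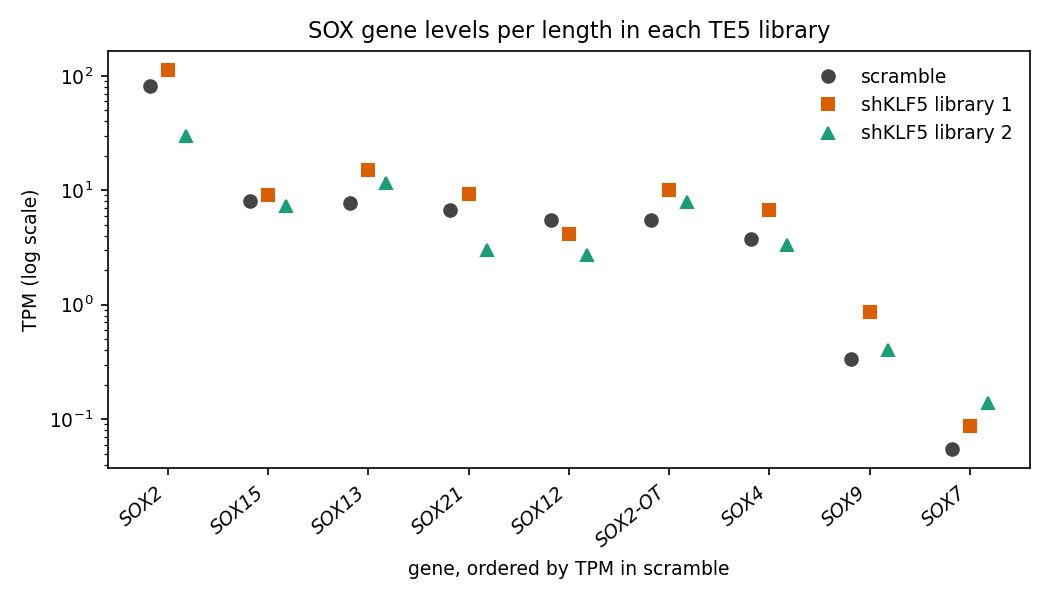
Level of each SOX gene in TPM (log axis) in scramble, shKLF5 library 1 and shKLF5 library 2, 1 point per library, ordered by the scramble level. SOX2 lies above all others at 30.0 to 113 TPM, 6 genes lie between 2.71 and 15.2 TPM, and SOX9 and SOX7 lie below 1 TPM.

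Below SOX2 the order of levels in scramble was SOX15 (8.04 TPM), SOX13 (7.70), SOX21 (6.77), SOX12 (5.53), SOX2-OT (5.50), SOX4 (3.75), SOX9 (0.334) and SOX7 (0.0544). Over the 3 libraries the range of SOX2 did not overlap that of SOX15, nor the range of SOX4 that of SOX9, nor that of SOX9 that of SOX7. Neighbours from SOX15 down to SOX4 overlapped, so their order is not fixed beyond the spread of the libraries. SOX21, for example, ranked 4 of 9 in scramble and in library 1 and 6 in library 2, while SOX2-OT ranked 6 in scramble and 3 in both shKLF5 libraries.

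SOX2 was near its scramble level in library 1 and well below it in library 2. SOX2 (ENSG00000181449; GRCh38 chromosome 3, 181711924 to 181714436, a single exon) had 5899, 7876 and 2185 estimated counts. After TMM scaling, which corrects for composition, these were 222, 220 and 62.8 CPM (counts scaled to library size). Library 2 alone was low, and scramble fell within the range of the 2 shKLF5 libraries by counts. The log2 difference from scramble was -0.01 in library 1 and -1.82 in library 2, the latter 3.53-fold lower. With library size alone library 1 stood at 0.42 and library 2 at -1.39, so the direction in library 1 turned with the scaling. The 2 shKLF5 libraries lay 1.81 apart on the log2 scale, a gap reached by 213 of 11017 genes with a mean of at least 5 CPM (1.93%), and by 3.64% of all genes tested. Fitted over both, the change was -0.65 on the log2 scale (SE 0.62, 95% confidence interval -2.09 to 0.79), and the Benjamini-Hochberg adjusted p was 0.756 by edgeR's quasi-likelihood test. The difference of the groups was thus smaller than the spread between the 2 shKLF5 libraries.

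SOX21 took nearly the same course as SOX2. SOX21 (ENSG00000125285; chromosome 13, 94709622 to 94712399) had 491, 647 and 221 counts, or 18.5, 18.1 and 6.36 CPM. As with SOX2, library 2 alone was low and scramble lay between the others by counts. The log2 difference was -0.03 in library 1 and -1.53 in library 2, or 0.40 and -1.11 with library size alone. Its fitted log2 change was -0.60 (SE 0.60, 95% confidence interval -1.98 to 0.79; edgeR adjusted p = 0.766). The gap between its shKLF5 libraries was reached by 3.2% of genes with a mean of at least 5 CPM. Within a library, where no scaling enters, there were 8.32 SOX21 counts per 100 of SOX2 in scramble (95% Wilson-based interval 7.59 to 9.13), 8.21 in library 1 (7.58 to 8.90) and 10.1 in library 2 (8.81 to 11.6). All 3 intervals overlapped, but the value was highest in library 2 and overlap is not a test that the ratio was equal. SOX21-AS1, the divergent neighbour of SOX21, was picked with its values in view and had 220, 327 and 171 counts, with a log2 difference of 0.14 in library 1 and -0.74 in library 2. It was thus also lower in library 2 than in library 1, by a smaller step than SOX21.

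**Figure D2:**
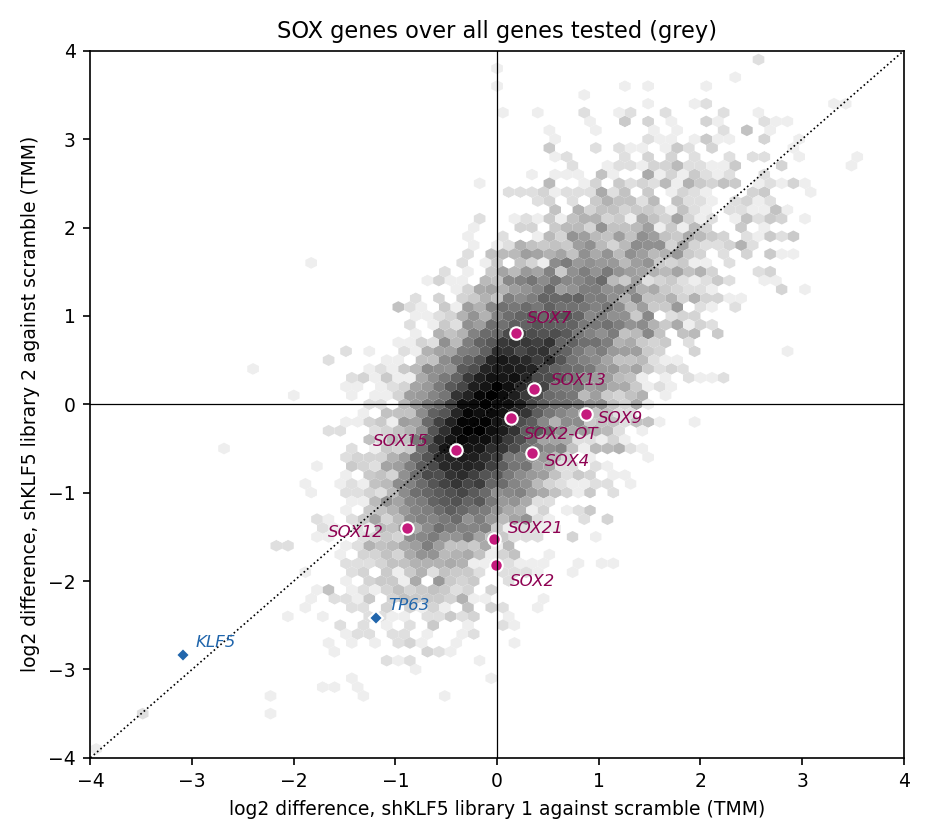
Log2 difference of shKLF5 library 1 (x axis) and library 2 (y axis) from scramble after TMM scaling, with SOX genes as round points, KLF5 and TP63 as diamonds, and grey for the density of all genes tested (log colour scale). The dotted line marks equal values in both libraries: SOX2 and SOX21 lie far below it near 0 on the x axis, whereas SOX12 lies in the lower left and SOX13 in the upper right. Both axes share the scramble library, so the slope of the grey cloud is not read as agreement, and genes beyond the axis limits are not drawn.

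Genes with the course of SOX2 were found by the distance between pairs of log2 differences (library 1, library 2), among 10376 protein-coding genes with a mean of at least 5 CPM and over 3 libraries. The 5 nearest were LAMB1 (a laminin subunit; distance 0.03), DPYD (pyrimidine breakdown; 0.05), SLC7A8 (an amino acid transporter; 0.09), TENT4B (an RNA tailing enzyme; 0.09) and EFNB1 (ephrin B; 0.10). LAMB1 had 4404, 5783 and 1639 counts, and EFNB1 had 4565, 6109 and 1811. SLC7A8, the most abundant of them, had 36039, 51074 and 13359. Their low value in library 2 follows from how they were chosen. SOX21 lay at 0.29, and 42 genes (0.405%) lay no farther from SOX2 than it, itself included. With 3 libraries such likeness rests on 2 differences per gene. TP63, the other named circuit factor, lay at 1.32: it had 8380, 4939 and 2047 counts, and was below scramble in both shKLF5 libraries. There were 142 TP63 counts per 100 of SOX2 in scramble, 62.7 in library 1 and 93.7 in library 2, so these factors did not keep a fixed ratio.

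SOX2-OT, the noncoding gene that holds SOX2 in an intron on the same strand, did not take the low value of SOX2 in library 2. SOX2-OT (ENSG00000242808; chromosome 3, 180989762 to 181836880) had 257, 381 and 301 counts, or 9.67, 10.6 and 8.66 CPM. Scramble lay between the 2 shKLF5 libraries in CPM and below both in counts. The log2 difference was 0.14 and -0.16, and the fit gave -0.00 (SE 0.45, 95% confidence interval -1.04 to 1.03; edgeR adjusted p = 0.998), with 0.43 under library size alone. Per 100 SOX2 counts there were 4.36 of SOX2-OT in scramble (3.85 to 4.94), 4.84 in library 1 (4.37 to 5.36) and 13.8 in library 2 (12.2 to 15.5), so the ratio in library 2 lay outside both other intervals.

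**Figure D3:**
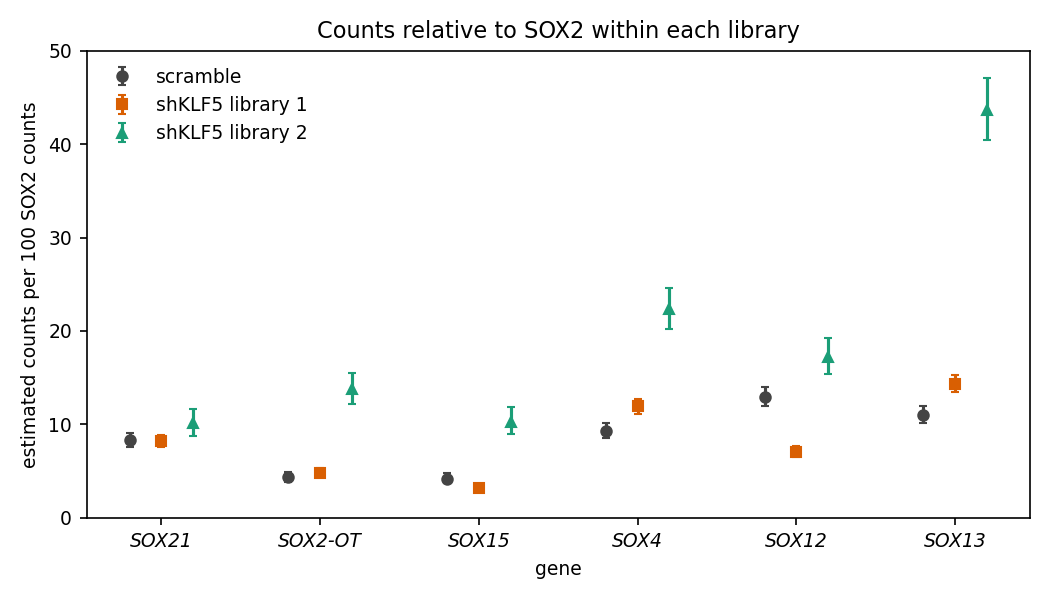
Estimated counts of 6 SOX genes per 100 counts of SOX2 within each library, 1 point per library with a 95% Wilson-based interval that covers counting error only. SOX21 runs from 8.21 to 10.1, highest in library 2, while SOX2-OT moves from 4.36 in scramble to 13.8 in library 2 and SOX13 reaches 43.7 there.

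Of 35 SOX2-OT transcripts listed in the tables, 22 had at least 1 count in a library, and 0 share a base with the SOX2 exon in GENCODE 29. The leading one, SOX2-OT-218, starts 148 kb before SOX2 and had 121, 175 and 165 counts. SOX2-OT-213, which starts 102 kb before SOX2 and just after the RefSeq start whose upstream bases are printed above, had 72, 82 and 42 counts, the lowest of them in library 2. Fitted on transcripts, SOX2-OT-218 had a log2 fold change of 0.12 (SE 0.52) and SOX2-OT-213 one of -0.58 (SE 0.67), with edgeR adjusted p = 0.998 and 0.991 over 73052 transcripts, of which 0 passed and 3790 (5.19%) had an unadjusted p under 0.05. Transcripts that start 100 to 500 kb before SOX2 held 85.8%, 85.7% and 79.8% of SOX2-OT counts, those that start under 20 kb before it 13.3%, 10.4% and 16.4%, and those that start over 500 kb before it 0.830%, 3.85% and 3.81%. The far class had 2, 15 and 11 counts. Kallisto splits reads among overlapping transcripts, so these are estimates.

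**Figure D4:**
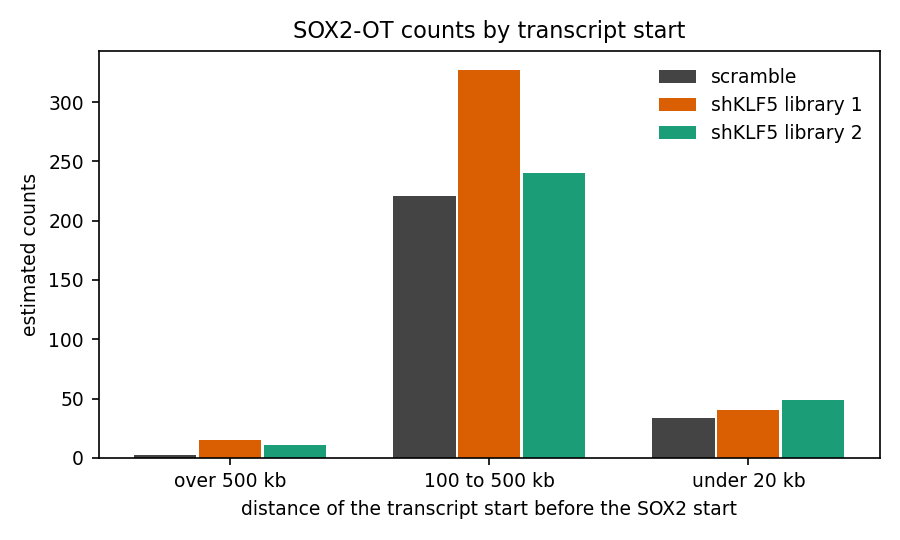
Estimated SOX2-OT counts (y axis) by the distance from each transcript's start to the SOX2 start (x axis), with 1 bar per library. The class at 100 to 500 kb is the largest in every library, at 221, 327 and 240 counts (scramble, shKLF5 libraries 1 and 2).

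SOX12 stood lower in both shKLF5 libraries, the clearest difference among the 9 genes, though it did not pass the test over all genes. SOX12 (ENSG00000177732; chromosome 20, 325595 to 330224), a SOXC activator of progenitor cells, had 764, 555 and 376 counts. Scaled by TMM, scramble stood at 28.7 CPM and shKLF5 at 13.2 ± 3.31 (SD, n = 2). Both shKLF5 values lay below scramble, and did so by counts as well. The log2 difference was -0.89 in library 1 and -1.40 in library 2, or -0.46 and -0.98 with library size alone. The fit gave a log2 change of -1.13 (SE 0.41; 95% confidence interval from -2.09 to -0.17), with an edgeR adjusted p of 0.482. SOX12 alone of the 9 had an unadjusted p under 0.05, as did 9.18% of all genes tested and, on the lower side, 3.5%.

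SOX4, the other SOXC gene, which takes part in survival and mesenchymal change of carcinoma cells, differed between the shKLF5 libraries. SOX4 (ENSG00000124766; chromosome 6, 21592768 to 21598619) had 548, 939 and 488 counts, or 20.6, 26.2 and 14.0 CPM. Scramble lay between the others. The fitted log2 change was -0.03 (SE 0.48, 95% confidence interval -1.14 to 1.07; edgeR adjusted p = 0.986), and 0.40 under library size alone. There were 71.7 SOX4 counts per 100 of SOX12 in scramble, with an upper bound of 80.0, and 169 and 130 in the shKLF5 libraries, the latter with a lower bound of 113 (95% Wilson-based). Both shKLF5 ratios thus lay above that of scramble beyond counting error, whatever the scaling between libraries.

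SOX13 stood higher than scramble in both shKLF5 libraries by a small step. SOX13 (ENSG00000143842; chromosome 1, 204073115 to 204127743), which lacks a transactivation domain of its own, as SOXD proteins do, had 649, 1128 and 954 counts. Scaled by TMM, scramble stood at 24.4 CPM and shKLF5 at 29.5 ± 2.86 (SD, n = 2). The shKLF5 values did not overlap scramble under any of TMM, median-ratio size factors or library size alone. The log2 difference was 0.37 in library 1 and 0.17 in library 2, or 0.80 and 0.59 with library size alone, where the median of all genes stood at 0.467. The fitted log2 change was 0.27 (SE 0.39, 95% confidence interval -0.62 to 1.17; edgeR adjusted p = 0.839). SOX13-203, the main coding transcript, held 87.2%, 87.5% and 87.3% of its counts in scramble, library 1 and library 2. Set against SOX12, there were 84.9 SOX13 counts per 100 in scramble (76.5 to 94.3), 203 in library 1 (184 to 225) and 254 in library 2 (225 to 286).

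SOX15 (ENSG00000129194; chromosome 17, 7588178 to 7590170), the only SOXG factor, which is expressed in basal squamous epithelium, had nearly level counts of 247, 251 and 225. In CPM it was 9.29 against 6.74 ± 0.377 (SD, n = 2), lower in both shKLF5 libraries, but with library size alone the log2 difference was 0.03 in library 1 and -0.10 in library 2. The fitted log2 change was -0.46 (SE 0.45, 95% confidence interval -1.50 to 0.58; edgeR adjusted p = 0.758). Its estimated transcripts differed in value in library 1: SOX15-201 had 92, 44 and 85 counts, or 37.3%, 17.5% and 37.8% of the gene, and SOX15-202 had 147, 202 and 139. Library 1 stood apart here and library 2 was close to scramble. SOX15 lies inside MPDU1 on the other strand, which had 2336, 2005 and 1332 counts. Whether the counting used strand was not stated. No 31-base word of the SOX15 transcripts occurs in transcripts of other genes.

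SOX9 and SOX7 were the least abundant of the 9 genes. SOX9 (ENSG00000125398; chromosome 17, 72121020 to 72126420), a factor of glandular and cartilage progenitors, had 39 counts (95% Poisson interval 27.7 to 53.3) in scramble, then 98 (79.6 to 119) and 47 (34.5 to 62.5). Library 1 was higher than both others beyond counting error, while library 2 and scramble overlapped. The fitted log2 change was 0.48 (SE 0.66; edgeR adjusted p = 0.835), with 0.87 in library 1 and -0.11 in library 2. SOX9-AS1, on the opposite strand around it and also picked with its values in view, had 12, 25 and 24 counts. SOX7 (ENSG00000171056; chromosome 8, 10723768 to 10730512), an endothelial and endodermal SOXF factor, had 5 counts (1.62 to 11.7) in scramble, then 8 (3.45 to 15.8) and 13 (6.92 to 22.2). These intervals overlapped at such low counts, and the edgeR adjusted p of SOX7 was 0.835. The summed endothelial markers were likewise lowest in scramble and highest in library 2, and their part in the SOX7 values was not tested. Of the SOX7 sequence, 42.0% of 31-base words also occur in transcripts of other genes.

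Of the 9 genes, 0 passed edgeR's quasi-likelihood test at an adjusted p under 0.05, and 0 of 20629 genes did (0%). DESeq2 called 118 genes (0.687% of those given an adjusted p) and edgeR's legacy fit called 21 (0.102%), with 0 of the 9 SOX genes in either. After TMM scaling 2 of the 9 were higher in both shKLF5 libraries (SOX13 and SOX7), 4 were lower in both (SOX2, SOX12, SOX15 and SOX21) and 3 went opposite ways. SOX7 passed the filter on low counts only through library 2, where it is highest, so its place here is favoured by the filter. The log2 differences of SOX2 and SOX21 in library 1 were only -0.01 and -0.03. Of all genes tested 37.9% were higher in both, 36.5% lower in both and 25.5% opposite. With library size alone 4 of the 9 were higher in both, 1 (SOX12) lower in both and 4 opposite, where the shares of all genes were 65.2%, 12.5% and 22.3%. With 9 genes, nothing particular to the SOX genes is read from these counts.

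**Figure D5:**
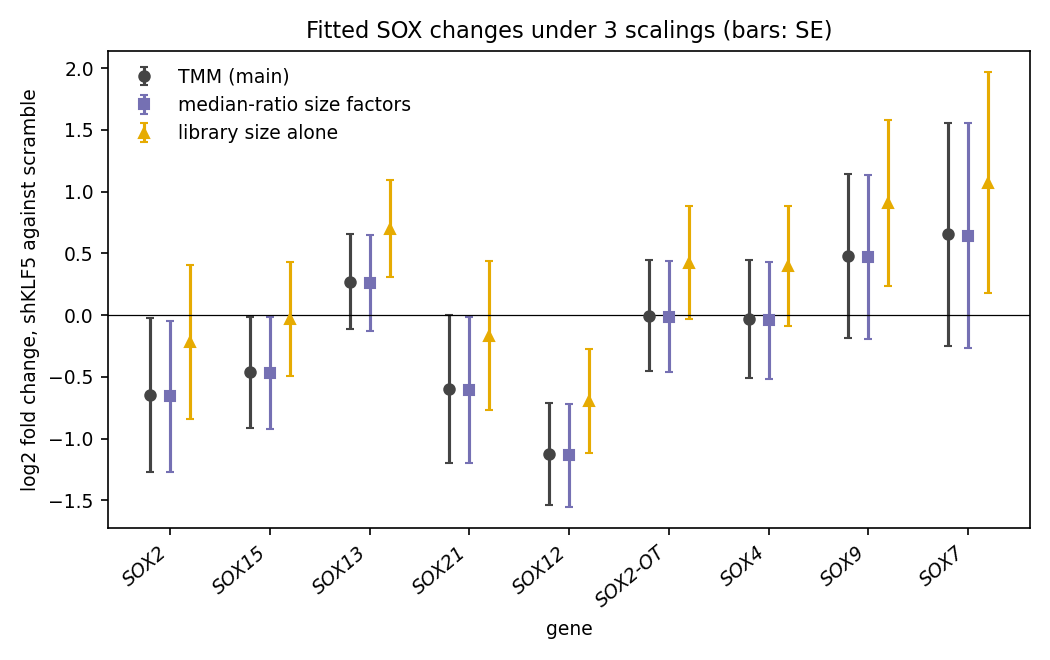
Fitted log2 fold change of each SOX gene, shKLF5 (2 libraries) against scramble (1 library), under TMM, median-ratio size factors and library size alone, with bars of 1 SE. SOX2, SOX12, SOX15 and SOX21 lie below 0 under each scaling, and SOX13, SOX9 and SOX7 lie above it. Under TMM the bars of SOX13, SOX9 and SOX7 span 0, and that of SOX12 does not. SOX4 and SOX2-OT cross 0 with library size alone, where the median of all genes stood at 0.467.

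Little of the SOX transcripts was shared with other genes, SOX7 apart. Of the 31-base words of SOX2, 3.79% also occur in transcripts of other genes, among them SOX1, SOX14 and SOX21, and the share was 1.71% for SOX21, 0.768% for SOX9, 0.258% for SOX4 and 0.174% for SOX12. It was 4.64% for SOX13 and 2.79% for SOX2-OT.

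Of 11 further SOX genes 5 were tested: SOX6 was higher in both shKLF5 libraries, SOX1, SOX5, SOX8 and SOX18 were lower in both, and 0 passed the test. SOX6, a SOXD gene, had 29, 45 and 189 counts, with log2 differences of 0.19 and 2.25 and an edgeR adjusted p of 0.617. SOX5, its close relative, went the other way with 281, 277 and 149 counts, so library 2 was high in SOX6 and low in SOX5. Among SOXD genes SOX13 was thus the one whose shKLF5 libraries lay closest to each other. SOX8 had 167, 167 and 112 counts, SOX1 had 99, 116 and 86, and SOX18 had 31, 24 and 21. The median log2 fold change of the 5 was -0.67 against 0.04 for all genes tested, and under library size alone 1 lay above scramble in both and 2 below. The sign of this median depended on which genes entered. It was 0.53 with no filter on low counts and 0.55 with DESeq2, which take in the scarcer SOX genes. The median of all genes was 0.331 and 0.337 there. Under library size alone the SOX median was -0.24, where that of all genes was 0.467. SOX10 had 0, 7 and 5 counts, and SOX11, SOX14 and SOX30 had at most 6 in any library. SOX3 and SOX17 had 0 counts throughout, which allows up to 3 counts, or 0.0897, 0.0894 and 0.0917 CPM in scramble, library 1 and library 2.

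Partners of SOX2 in reprogramming and in development did not lie to one side. Of 16 listed, 10 were tested, with a median log2 change of 0.07 and 0 called. Of these, 2 lay above scramble in both shKLF5 libraries, 4 below it in both and 4 on both sides. The shares of all genes tested were 37.9%, 36.5% and 25.5%. Under library size alone 6 lay above scramble in both and 3 below it in both, against 65.2% and 12.5% of all genes. The list's median ran from -0.07 (genes with a mean of at least 5 CPM) to 0.49 (library size alone, where that of all genes was 0.467). KLF5, the target of the hairpin, is among those below scramble in both and enters this tally and its median. The smallest p-values were those of KLF5 and TP63 (log2 fold change -1.68, SE 0.49). MYC came next with 4371, 4264 and 3834 counts, then POU5F1, the pluripotency partner of SOX2, with only 7, 18 and 23. POU5F1 passed the filter on low counts only through shKLF5, which favours a higher value there. NANOG, SALL4 and LIN28B were too low to be tested.

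Foregut and squamous genes known with SOX2 mostly had lower values in shKLF5. Of 24 listed, 22 were tested, 17 lay below scramble in both shKLF5 libraries, as did 36.5% of all genes tested, and 3 above it in both. Their median log2 fold change was -1.15, or -0.78 in library 1 and -1.53 in library 2, and 0 were called by edgeR's test. An unadjusted p under 0.05 was found for 12 of them on the lower side, where 3.5% of all genes had one, and for 1 on the higher. With library size alone 15 of 22 were lower in both, against 12.5% of all genes. Those with the smallest p were KRT14, KRT6A, KRT5 and DSG3, structural genes of squamous cells. KRT5 had 142684, 34119 and 13095 counts and was low in library 1, where SOX2 was near scramble. DSG3 had 15213, 8078 and 5776 counts. The low squamous keratins were already known from these libraries when the list was chosen, so it is no independent evidence.

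Selected genes around SOX2 on chromosome 3, in bands 3q26 and 3q27, were listed to see whether they shared its course. They are not the set of adjacent genes: KCNMB2, for example, starts at 178272932 and SOX2 at 181711924. Of 31 tested, 22 were lower in both shKLF5 libraries, 7 higher in both and 2 opposite after TMM scaling. The shares of all genes tested were 36.5%, 37.9% and 25.5%. The median log2 change was -0.29, against 0.04 for all genes, or -0.21 in library 1 and -0.31 in library 2. Under library size alone 16 lay above scramble in both and 4 below it in both, against 65.2% and 12.5% of all genes. The sign of the list's median thus turned with the scaling, but the median lay below that of all genes under both. It was 0.14 with library size alone (all genes 0.467), 0.19 on log2(TPM + 1) (all genes 0.264) and 0.20 on log2(TPM + 0.1) (all genes 0.431). Among genes with a mean of at least 5 CPM it was -0.13, nearer to that of all genes there (0.02). B3GNT5, a glycosyltransferase, had 4098, 2778 and 1497 counts and USP13, a deubiquitinase, 4264, 3237 and 1991, both lower in each shKLF5 library. ZMAT3, a p53 target that binds RNA, had 383, 997 and 1269 counts and was higher by value in each. KCNMB2, a potassium channel subunit, had 0, 15 and 10 counts. It passed the filter on low counts only through shKLF5, so its place among the genes higher in both is favoured by the filter.

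Modifiers and co-factors of SOX proteins showed small differences. Of 15 tested, 9 were lower in both shKLF5 libraries, 1 higher in both and 5 opposite, with a median log2 change of -0.24 and 0 called. The shares of all genes tested were 36.5%, 37.9% and 25.5%. Under library size alone 9 lay above scramble in both and 1 below, against 65.2% and 12.5% of all genes. The list's median was then 0.19 (all genes 0.467), and it was 0.24 on log2(TPM + 1) (all genes 0.264) and 0.25 on log2(TPM + 0.1) (all genes 0.431). Among genes with a mean of at least 5 CPM it was -0.06 (all genes 0.02). FBXW7, the ubiquitin ligase subunit that targets SOX9, had 1675, 2060 and 928 counts, low in library 2 as SOX2 was. PARP1 had 4852, 3994 and 3775 counts, CTNNB1 8610, 9132 and 6700 and SETD7, a lysine methyltransferase known to act on SOX2, 2127, 1935 and 2129. Of 16 tested genes known as targets or partners of SOX9 and SOX4, 7 were higher in both, 6 lower in both and 3 opposite, with a median of 0.60 (0.03 in library 1 and 0.65 in library 2). For all genes tested the shares were 37.9%, 36.5% and 25.5%. Scaled by library size alone, 11 lay above scramble in both and 2 below, against 65.2% and 12.5% of all genes. The list's median turned to -0.34 among genes with a mean of at least 5 CPM. It was 0.13 both with no filter and with DESeq2, where those of all genes were 0.331 and 0.337. COL11A2, a cartilage collagen and SOX9 target, had 73, 173 and 243 counts, TCF7 had 14, 45 and 42, LGR5 had 1, 16 and 5 and ACAN 0, 12 and 8. LGR5 and ACAN passed the filter on low counts only through shKLF5, where they are high. Their place among the genes higher in both is thus favoured by the filter, and both enter the tally and the median of 0.60.

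Of 15 glandular and neural markers 8 were tested, of which 2 lay above scramble in both shKLF5 libraries, 5 below it in both and 1 on both sides. For all genes tested the shares were 37.9%, 36.5% and 25.5%. Under library size alone 3 markers lay above scramble in both and 4 below, against 65.2% and 12.5% of all genes. The median of the tested markers was -0.87 on the log2 scale and 0 were called. It was 0.68 among those with a mean of at least 5 CPM, -0.44 under library size alone and -0.13 on log2(TPM + 1). CDX2, MUC2 and TFF1 were too low to be tested. NES, an intermediate filament gene of neural progenitors that SOX2 is known to activate there, had 509, 393 and 88 counts, lowest in library 2. NEUROD1 had 20, 11 and 6 counts, CHGA 19, 8 and 10 and GFAP 10, 47 and 22. Their part in the values of the SOX genes was not tested.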

How the data were processed

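RNA of 3 TE5 libraries was measured by sequencing. The deposited estimated counts are per transcript and not normalised, per the file headers, which are those of a kallisto abundance table. The deposited TPM values are scaled for length and to one sum per library, per the file headers. The deposited length and effective length columns served the annotation check and length-scaled counts. The submitters' processing notes list kallisto, DESeq2 and hg19, with no versions. Transcript set and strand setting: not given in the sources used here.

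Of 196354 transcripts, 92.6% matched GENCODE 29 (GRCh38) by identifier, 93.2% of these with the same length. The unmatched held 3.05% to 3.42% of counts and were left out. Counts were summed per gene and rounded, and edgeR 4.0.16 (R 4.3.3) served as the test (filterByExpr, TMM, quasi-likelihood test with legacy = FALSE, Benjamini-Hochberg over 20629 genes, threshold 0.05). TMM factors were 0.82 for scramble, 1.11 and 1.10 for shKLF5 libraries 1 and 2. Residual degrees of freedom came to 1, and prior ones, drawn from the spread over all genes tested, to 6.86. The p-values and confidence intervals of edgeR thus rest mostly on that shared spread. The common spread over all genes, which comes from the shKLF5 pair and may be technical, was 32.9% (coefficient of variation). Each SE divides the size of the log2 fold change by the square root of F. Differences of single libraries, with a prior count of 2, have no test. Intervals of ratios within a library are Wilson intervals, and those of counts exact Poisson, both for reads without molecular identifiers.

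The genes named were all 9 SOX genes, further SOX genes with at least 10 counts in a library, transcripts with at least 10% of their gene, up to 4 genes of smallest p from each of 7 lists, and the 5 genes nearest to SOX2. Members and lists were chosen with earlier results of these data known. The 7 lists were further SOX genes, SOX2 partners, foregut and squamous genes, selected genes of 3q26 and 3q27, modifiers, SOX9 and SOX4 targets, and glandular and neural markers. MUC5AC was not matched, and 1 further listed gene is not reported here. Words of 31 bases were counted in GENCODE 29 transcripts. The alternatives tried were no filter, a filter at a mean of 5 CPM, library size alone, median-ratio size factors, length-scaled TPM, DESeq2 1.42.0, edgeR's legacy fit, limma 3.58.1 on log2(TPM + 1) and on log2(TPM + 0.1), protein-coding genes alone, transcripts, and each shKLF5 library left out. The edgeR and DESeq2 fits were run on simulated data with known changes. This checked the size of the recovered change, not the calls, with both shKLF5 libraries drawn from the same means.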

Additional observations from a re-analysis of the deposited data

How the results depend on the processing

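The SOX2 log2 fold change kept its sign in the 10 other fits (-0.69 to -0.22, adjusted p 0.720 to 0.999), and lay between -1.82 and -0.01 with 1 shKLF5 library left out, values that have no test. SOX12 stayed below 0 (-1.17 to -0.58) and SOX13 above 0 (0.23 to 0.77) in every fit, and no SOX gene was called in any. Over all genes the count called was 0 in the main test and 0 in each other fit except DESeq2 (118) and edgeR's legacy fit (21), and the cause was not tested. The sign of SOX2-OT reversed with library size alone (0.43), a filter at a mean of 5 CPM (0.17), length-scaled TPM (0.24), log2(TPM + 1) (0.61) and log2(TPM + 0.1) (0.69). SOX4 reversed with library size alone (0.40), a filter at a mean of 5 CPM (0.14), log2(TPM + 1) (0.28), log2(TPM + 0.1) (0.32) and protein-coding genes (0.0353). SOX15 reversed with log2(TPM + 1) (0.00955) and log2(TPM + 0.1) (0.00980). With library size alone, log2(TPM + 1) and log2(TPM + 0.1), SOX21-AS1 reversed to 0.19, 0.11 and 0.13, SOX1 to 0.0464, 0.0217 and 0.0346 and NRSN2-AS1, antisense to SOX12, to 0.24, 0.22 and 0.24. SETD7 reversed to 0.10 in both TPM fits. The median of all genes was 0.467 with library size alone, 0.264 on log2(TPM + 1) and 0.431 on log2(TPM + 0.1), against 0.04 in the main test. It was 0.331 with no filter and 0.337 with DESeq2. SOX15, SOX21-AS1, SOX1, NRSN2-AS1 and SETD7 lay below the median of all genes in each fit where they reversed. Of 84 recomputed list medians 39 moved by more than the spread of the 2 libraries, and all but the foregut and squamous one turned sign in at least 1 fit. No paired analysis was possible because there is only 1 scramble library for the 2 shKLF5 libraries. The single scramble library and 1 residual degree of freedom limit what could be called, and SOX7 and SOX9 are further limited by their low counts.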
